A study of Mus musculus with 8 samples.

Results

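The respiratory chain genes described here are 101 protein-coding genes with symbols of the mitochondrial respiratory chain and ATP synthase families. Of these, 13 are encoded by the mitochondrial genome and 88 by the nucleus. Besides subunits they include 9 assembly factors, 1 inhibitor and 1 annotated gene copy. They were chosen by gene symbol (mt-, Nduf, Sdh, Uqcr, Cox4 to Cox8 and Atp5 families) among genes at a TPM (a length-scaled share of the library) of 1 or more in at least 4 of 8 libraries. The symbols matched 109 protein-coding genes, of which 101 passed the minimum. The whole table holds 49315 gene identifiers, and 12900 of them passed the same minimum and were tested. The 8 that did not pass were the isoform or paralogue genes Cox4i2, Cox6a2, Cox6b2, Cox7b2, Cox8b, Cox8c and Ndufa4l2, and Ndufb11b.

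The samples come from 4 lines of mouse pancreatic ductal adenocarcinoma cells (mPDAC): 6694c2 and 2838c3, and 6499c4 with 6419c5. Each was grown once as a C1galt1c1 knockout (KO) and once as its wild-type (WT) parent. C1galt1c1, also called Cosmc, encodes the chaperone of the enzyme that extends O-linked glycans beyond the first sugar. All 8 cultures were kept in high-glucose medium with serum, and polyadenylated RNA was sequenced as paired reads of 150 bases. Each line and genotype has 1 library, so nothing repeats a KO minus WT difference seen inside 1 line. Tests of KO against WT set the mean difference against how much that difference varies between the 4 lines. For each gene this spread is drawn toward a trend fitted over all genes tested. The standard errors and p-values given below therefore do not measure the spread of a single gene alone. The labels do not say whether a KO line is 1 clone or a pool.

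The respiratory chain passes electrons from NADH and succinate through complexes I, II, III and IV to oxygen and pumps protons that complex V, the ATP synthase, uses to make ATP. Its subunits come from separate genomes: the mitochondrial genome encodes the hydrophobic cores of complexes I, III, IV and V, while the nucleus encodes all of complex II and the other subunits, which are imported and assembled. Mitochondrial genes are read as long transcripts from both strands of the circular genome and cut into single messages, whereas each nuclear gene has its own promoter, often with sites for NRF1, ETS factors and YY1.

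By complex, the members were 7 mitochondrial and 44 nuclear genes for complex I (7 core subunits, 29 accessory subunits and 8 assembly factors, Ndufaf1 to Ndufaf8), 4 nuclear genes for complex II, 1 mitochondrial and 8 nuclear genes for complex III, 3 mitochondrial and 13 nuclear genes for complex IV, and 2 mitochondrial and 18 nuclear genes for complex V. Ndufa4 was counted with complex IV, of which it is a subunit despite its name, and Cox7a2l, which helps complexes III and IV associate, was counted as an assembly factor. The list also holds Cox5b-ps, an annotated copy of Cox5b on chromosome 13 that belongs to no complex and stood at 1.81 to 4.81 TPM. It lacks Cyc1, the cytochrome c1 of complex III at 218 to 351 TPM, whose symbol the rule does not match.

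C1galt1c1 was lower in the KO library of every line, at 10.9 against 37.0 TPM in 6694c2, 15.3 against 40.4 TPM in 2838c3, 19.0 against 54.2 TPM in 6499c4 and 16.1 against 37.9 TPM in 6419c5 (KO against WT). All 7 epithelial markers were detected, with summed levels of 13359 to 24153 TPM in KO and 13779 to 20030 TPM in WT libraries. Epcam was low at 1.21 to 44.9 TPM. Acinar and islet markers were at 0, and the summed endothelial and fibroblast markers did not pass 2.23 TPM in any library. Among the immune markers Ptprc, Cd3e and Itgam were at or under 0.151 TPM, and Cd14 stood at 238 to 418 TPM. RNA from identifiers without a name made up 12.5% of the KO library in 6694c2 and 9.69% in 6419c5, against 0.713% to 1.33% of the other 6 libraries. Because TPM are shares, more of this RNA means less of the rest, and differences are given below relative to the median difference of all 12900 genes unless stated otherwise. That median KO minus WT difference on the log2(TPM + 1) scale was -0.23 in 6694c2, -0.08 in 2838c3, -0.11 in 6499c4 and -0.16 in 6419c5.

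The nuclear genome carries a near-exact copy of part of the mitochondrial genome, which bears on how far the levels of the mitochondrial genes can be read. Positions 6394 to 9828 of the mitochondrial chromosome occur on the minus strand of chromosome 1 at 24651831 to 24655265 in GRCm39, with 99.97% identity, and positions 9821 to 11042 occur at 24650616 to 24651837 with 100% identity. The copy holds the genes from the end of mt-Co1 to the first part of mt-Nd4. The region where mt-Atp8 and mt-Atp6 overlap is shown to make the problem visible. Capitals mark the bases shared by both reading frames, positions 7927 to 7969. The first line is chrM:7907-7989 on the plus strand and the second chr1:24653670-24653752 on the minus strand, both in GRCm39.
mt-Atp8 and mt-Atp6 overlap: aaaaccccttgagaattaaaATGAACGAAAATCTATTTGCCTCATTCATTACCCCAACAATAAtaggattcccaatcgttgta
chromosome 1 copy: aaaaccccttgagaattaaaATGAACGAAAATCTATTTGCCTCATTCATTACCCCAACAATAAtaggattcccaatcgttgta
The letters are identical, and so is every other base of mt-Co2, mt-Atp8, mt-Atp6, mt-Co3 and mt-Nd4l. Over both copied stretches together a single substitution was found, T9461C in mt-Nd3 (mitochondrial base first, counted from the start of the mitochondrial chromosome on its plus strand). It is shown in capitals in chrM:9436-9486 on the plus strand and in its copy, chr1:24652173-24652223 on the minus strand.
mt-Nd3 start: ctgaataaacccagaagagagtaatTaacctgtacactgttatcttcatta
chromosome 1 copy: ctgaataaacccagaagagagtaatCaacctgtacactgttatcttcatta

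The 13 mitochondrial genes lay in separate ranges of level according to how much of them is copied (plot of level against copied sequence). Of the windows of 150 bases, the read length, in each annotated transcript, 100% also occur on chromosome 1 for mt-Co2, mt-Atp8, mt-Atp6, mt-Co3 and mt-Nd4l, and 98.5% for mt-Nd3. These 6 genes lay between 1.12 and 22.9 TPM over all libraries. The share was 59.2% for mt-Nd4, which encodes a proton-pumping subunit of complex I, and 23.6% for mt-Co1, the catalytic subunit of complex IV. It was 0% for mt-Nd1, mt-Nd2, mt-Nd5, mt-Nd6 and mt-Cytb. The 7 genes with none or part of their windows copied lay between 301.2 and 21873 TPM, above every value of the other 6. The 6 copied genes held 0.125% to 0.255% of the summed mitochondrial TPM. The sources used here do not say how reads that match both places were counted, and the part of the copy in these low levels was not tested. The 7 annotated genes on the copy were low as well, from 0 TPM for Gm28438 in the 6499c4 KO library to 15.3 TPM for Atp6-ps in the 6419c5 WT library.

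**Figure D1:**
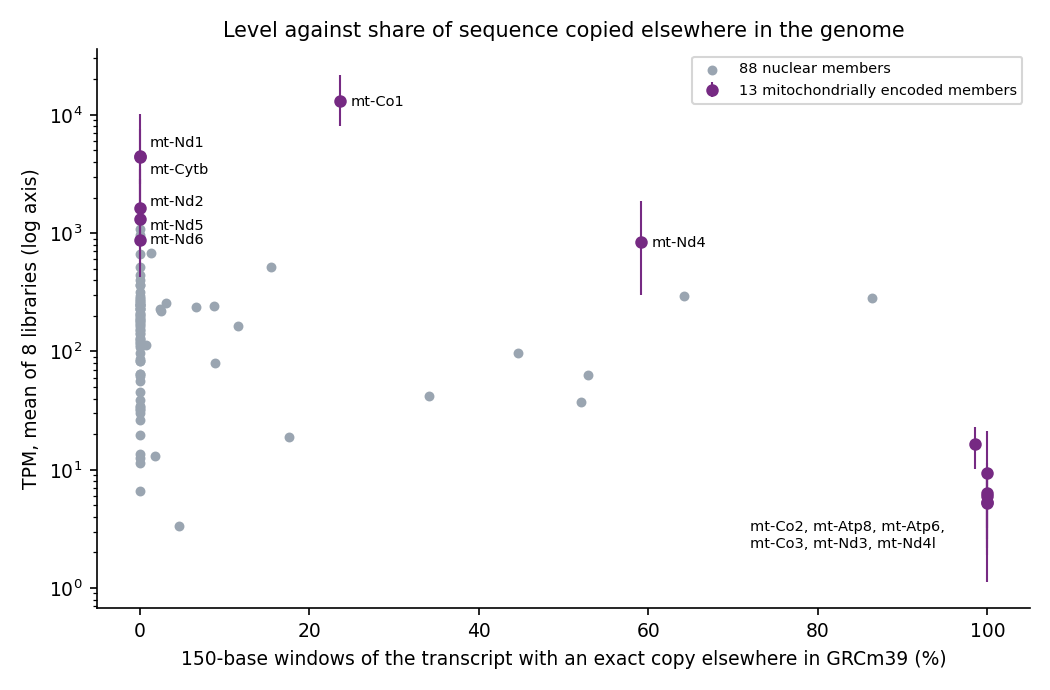
Mean TPM over 8 libraries (log axis) against the percentage of 150-base transcript windows that occur exactly elsewhere in GRCm39, for the 13 mitochondrially encoded members (purple, bars from the lowest to the highest library) and the 88 nuclear members (grey). The 6 mitochondrial genes with over 90% of windows copied sit at the lower right, while nuclear members with many copied windows, such as Atp5mc2 at 86.4%, keep levels like those of other nuclear members.

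Among the genes of complex I with no copied window, mt-Nd1 was the highest. It encodes a subunit at the joint of the membrane arm and the peripheral arm. mt-Nd1 stood at 2596 TPM in KO and 2932 TPM in WT cells of 6694c2, 4883 and 3706 TPM in 2838c3, 3244 and 4800 TPM in 6499c4, and 6305 and 7619 TPM in 6419c5 (KO first). Both 6419c5 libraries were above all 6 others and both 6694c2 libraries below them. KO was higher than WT in 2838c3 and lower in the other 3 lines before the median of all genes is taken off. mt-Nd2, a proton-pumping subunit, stood at 908 TPM in KO and 800.0 TPM in WT cells of 6694c2, 1494 and 1135 TPM in 2838c3, 927 and 1756 TPM in 6499c4, and 2498 and 3470 TPM in 6419c5. mt-Nd5, another pumping subunit, stood at 765 and 529 TPM in 6694c2, 1497 and 869.5 TPM in 2838c3, 844 and 1319 TPM in 6499c4, and 1806 and 2852 TPM in 6419c5, KO before WT. For mt-Nd2 and mt-Nd5, KO exceeded WT in 6694c2 and 2838c3 and stayed under it in 6499c4 and 6419c5.

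mt-Nd6 is the one protein gene on the minus strand of the mitochondrial genome (chromosome M, 13552 to 14070). It stood at 537 TPM in KO and 434 TPM in WT cells of 6694c2, 1054 and 625 TPM in 2838c3, 426 and 804 TPM in 6499c4, and 1342 and 1838 TPM in 6419c5. Its direction in each line was that of mt-Nd2 and mt-Nd5. The sources used here do not say whether reads were counted by strand, so reads from the opposite strand of this gene cannot be told apart from its own. mt-Nd4 stood at 479 and 301.2 TPM in 6694c2, 963 and 511 TPM in 2838c3, 458 and 863 TPM in 6499c4, and 1209 and 1886 TPM in 6419c5, KO before WT, with the same signs.

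mt-Cytb, the cytochrome b of complex III, stood at 2247 TPM in KO and 1178 TPM in WT cells of 6694c2, 3561 and 2822 TPM in 2838c3, 3665 and 4464 TPM in 6499c4, and 7124 and 10075 TPM in 6419c5. Line means ran from 1713 TPM in 6694c2 to 8599 TPM in 6419c5, a 5.02-fold range that was the widest among the 13 genes. mt-Co1 was the most abundant member in every library. It stood at 8465 TPM in KO and 8812 TPM in WT cells of 6694c2, 21873 and 8068 TPM in 2838c3, 8830 and 12583 TPM in 6499c4, and 14424 and 20766 TPM in 6419c5. The 2838c3 KO library had the highest mt-Co1 value of all 8, while its WT parent had the lowest.

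**Figure D2:**
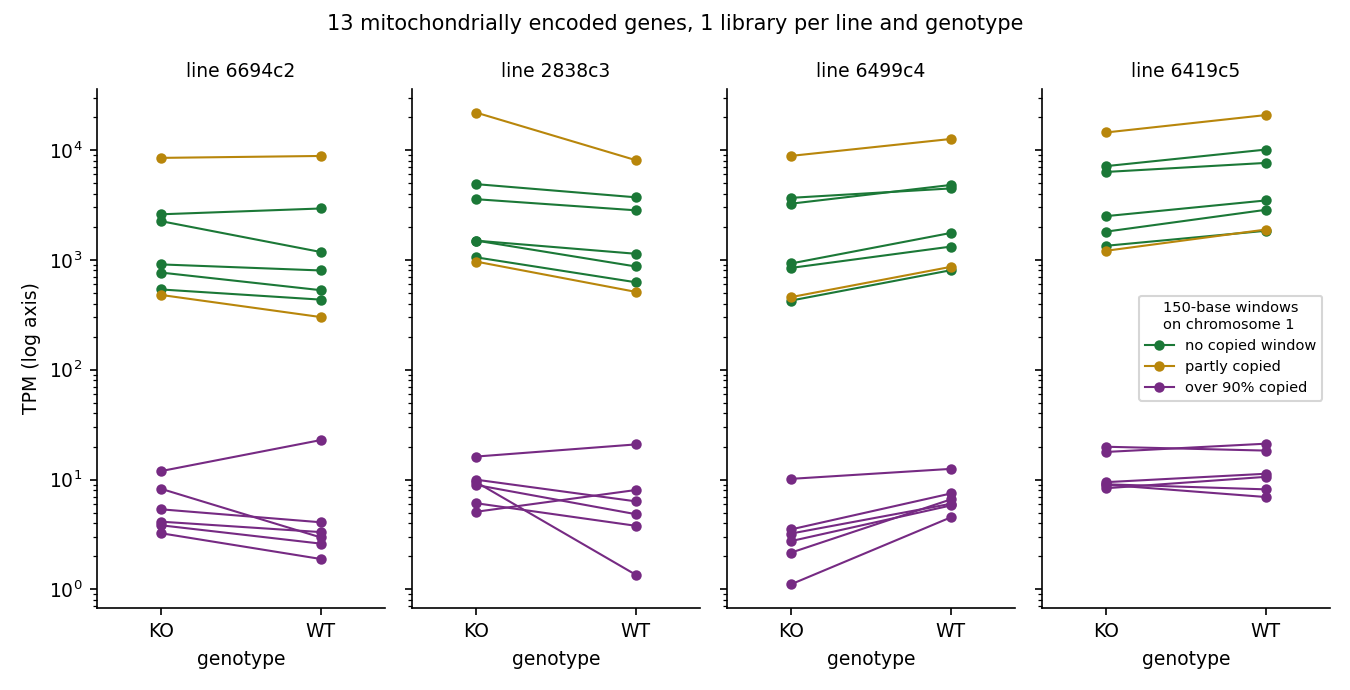
TPM (log axis) of the 13 mitochondrially encoded genes in each library, with 1 panel per line, KO at the left and WT at the right, and 1 connected pair of points per gene, coloured by the share of its 150-base windows copied on chromosome 1. The lines run down from KO to WT for most genes in 6694c2 and 2838c3 and up for all 13 in 6499c4.

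The genes that the chromosome 1 copy covers followed with more scatter. mt-Atp8, a small subunit of the ATP synthase, stood at 8.24 TPM in KO and 2.98 TPM in WT cells of 6694c2, 9.98 and 6.34 TPM in 2838c3, 2.17 and 6.60 TPM in 6499c4, and 17.8 and 21.2 TPM in 6419c5. mt-Nd4l reached a relative log2 difference of 2.23 in 2838c3, the largest positive difference of any member in any line, on levels of 9.49 TPM in KO and 1.36 TPM in WT. mt-Nd3 went against most others in 6694c2, with 11.95 TPM in KO and 22.9 TPM in WT. In 2838c3 it again went against them, with 16.2 TPM in KO and 20.9 TPM in WT, as did mt-Co3, with 5.09 TPM in KO and 8.04 TPM in WT. At such levels the added pseudocount of 1 understates folds. mt-Atp8 and mt-Atp6 also share the bases shown above, and mt-Nd4l (9877 to 10173) overlaps mt-Nd4 (10167 to 11544).

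The summed mitochondrial TPM moved one way in 2 lines and the other way in the other 2 (plot of summed TPM). It was 16035 TPM in KO against 15024 TPM in WT cells of 6694c2 and 35382 against 17781 TPM in 2838c3, but 18416 against 26633 TPM in 6499c4 and 34780 against 48582 TPM in 6419c5. KO over WT was therefore 1.07, 1.99, 0.691 and 0.716 in that order of lines. With TPM rescaled to nuclear protein-coding genes the same ratios were 1.22, 2.04, 0.687 and 0.783. mt-Co1 alone made up 41.5% to 61.8% of the sum, and over the 5 genes without a copied window KO over WT was 1.20, 1.36, 0.693 and 0.738. The mean over lines was 26153 ± 10358 TPM in KO and 27005 ± 15213 TPM in WT (SD, n = 4 lines each). These means leave the pairing by line aside, and the opposite differences within lines largely cancel in them. In RNA from whole cultures, fewer mitochondria, fewer genome copies and less RNA from each copy cannot be told apart.

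The 88 nuclear members summed to 14236 TPM in KO against 17202 TPM in WT cells of 6694c2, 16028 against 20456 TPM in 2838c3, 22028 against 20506 TPM in 6499c4 and 20670 against 21428 TPM in 6419c5. Their KO over WT ratios were 0.828, 0.784, 1.07 and 0.965. On the nuclear protein-coding base they were 0.949, 0.803, 1.07 and 1.05, and with median-ratio scaling 0.979, 0.833, 1.18 and 1.09, so the direction in 6419c5 changed with the scaling and the ratio in 6694c2 came close to 1. In both lines where the mitochondrial sum was higher in KO the nuclear sum was lower, and in 6499c4 the reverse held. The ratio of mitochondrial to nuclear TPM was 1.13 in KO against 0.873 in WT cells of 6694c2 and 2.21 against 0.869 in 2838c3, while it was 0.836 against 1.30 in 6499c4 and 1.68 against 2.27 in 6419c5. That is a 1.29-fold and a 2.54-fold higher ratio in the KO library of 6694c2 and 2838c3, and 0.644 and 0.742 times the WT ratio in 6499c4 and 6419c5. Over the 5 mitochondrial genes without a copied window, which leave out mt-Co1, the ratio to nuclear TPM was 0.496 in KO against 0.341 in WT cells of 6694c2, 0.779 against 0.448 in 2838c3, 0.413 against 0.641 in 6499c4 and 0.923 against 1.21 in 6419c5. The directions were the same, and the difference in 2838c3 was smaller than with mt-Co1 included. These are differences between single libraries.

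**Figure D3:**
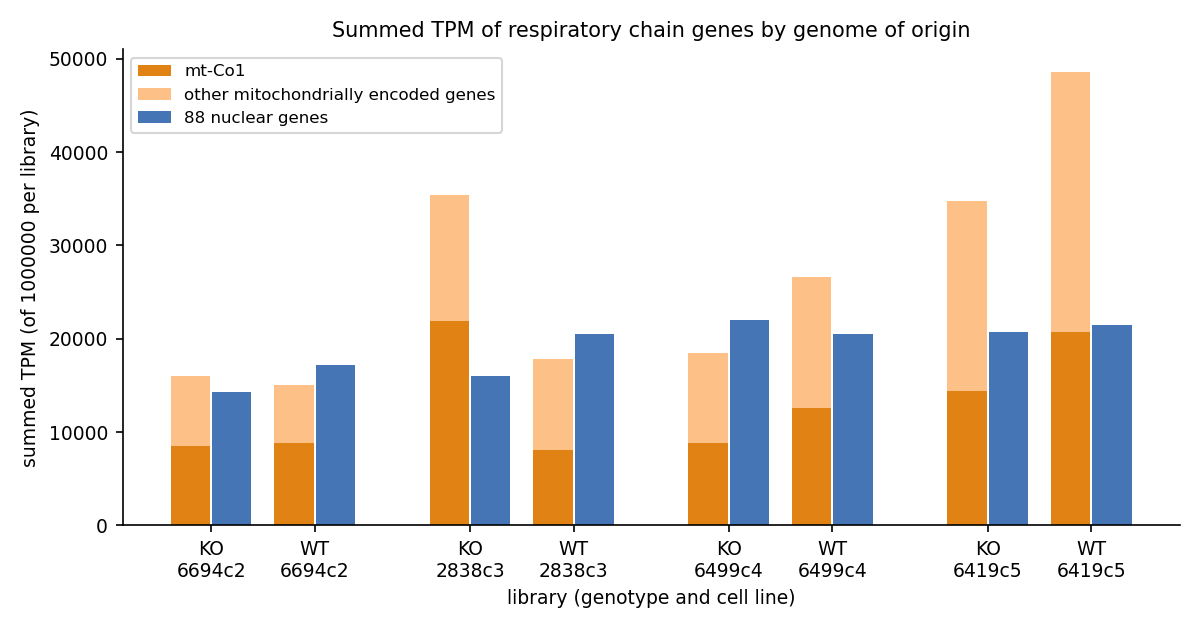
Summed TPM of the mitochondrially encoded members (orange, with mt-Co1 in the darker shade) and of the 88 nuclear members (blue) in each library, KO left of WT within each line. The mitochondrial sum spans 15024 to 48582 TPM and the nuclear sum 14236 to 22028 TPM.

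Gene by gene, the mitochondrial members moved together within each line (plot of KO minus WT by complex). Relative to all genes, their median log2 KO minus WT difference was 0.55 in 6694c2, 0.66 in 2838c3, -0.75 in 6499c4 and -0.16 in 6419c5. Above the median of all genes lay 12 of 13 in 6694c2, 11 in 2838c3, 0 in 6499c4 and 3 in 6419c5, where 50.0% of all genes lie above it by construction. Over the 5 genes with no copied window the medians were 0.53, 0.48, -0.54 and -0.32, and all 5 had the same sign within each line. A relative difference of at least 1.5-fold upward was seen for 6 of 13 in 6694c2, with mt-Nd3 passing it downward, and for 8 of 13 in 2838c3, against 8.88% and 15.1% of all genes. A difference of at least 1.5-fold downward was seen for 8 of 13 in 6499c4, against 5.09% of all genes. In 6419c5 none passed 1.5-fold upward or downward, against 6.4% and 6.47% of all genes. All but mt-Nd6 are read from the same strand in shared long transcripts, so they are not independent of each other.

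The nuclear members moved less and in another pattern. Their median relative log2 difference was -0.02 in 6694c2, -0.31 in 2838c3, 0.19 in 6499c4 and 0.10 in 6419c5, with 41, 16, 66 and 63 of 88 above the median of all genes. In 2838c3, 23 of 88 were at least 1.5-fold lower in KO, against 16.0% of all genes, and 5 were at least 1.5-fold higher, against 15.1%. In the other 3 lines at most 3 nuclear members passed 1.5-fold in either direction, where the background was 4.46% to 10.4%. The 68 nuclear members with no window copied anywhere gave medians of -0.02, -0.33, 0.19 and 0.09.

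**Figure D4:**
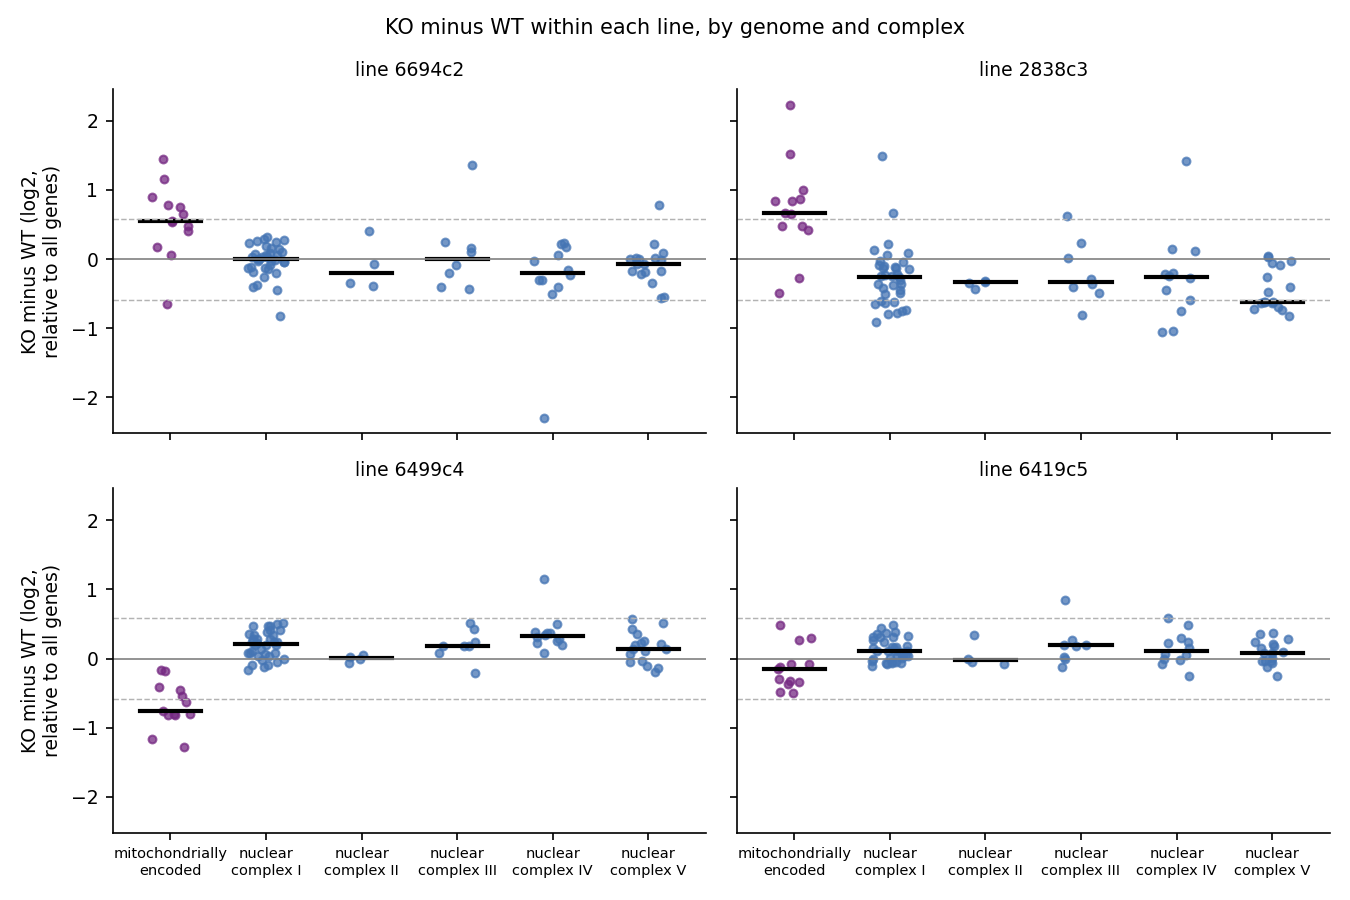
KO minus WT on the log2(TPM + 1) scale within each line, after the median of all 12900 genes is taken off, for the 13 mitochondrially encoded members (purple) and the nuclear subunits of complexes I to V (blue, assembly factors and the inhibitor left out). Points are genes, black bars are medians, and dashed lines mark a 1.5-fold difference. The mitochondrial median lies above the nuclear medians in 6694c2 and 2838c3 and below them in 6499c4 and 6419c5.

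In complex I, the 36 nuclear subunits had median relative log2 differences of 0.00 in 6694c2, -0.25 in 2838c3, 0.21 in 6499c4 and 0.11 in 6419c5, the order of lines kept for the medians that follow. The 7 nuclear core subunits, which hold the flavin and the iron-sulfur clusters, were all below the median of all genes in 2838c3, at -0.35. Ndufs1, the core subunit of the electron-accepting module, stood at 23.5 TPM in KO and 27.7 TPM in WT cells of 6694c2, 24.5 and 44.6 TPM in 2838c3, 25.7 and 31.3 TPM in 6499c4, and 30.2 and 34.7 TPM in 6419c5. KO was under WT in each line, with a limma log2 difference of -0.38 (SE 0.16), or -0.23 relative to all genes, and an adjusted p of 0.561. Relative to all genes the differences were 0.00, -0.76, -0.17 and -0.04.

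Ndufa6, an accessory subunit of complex I, had the largest positive difference of any nuclear member in 2838c3. It stood at 343 TPM in KO and 481 TPM in WT cells of 6694c2, 692 and 261 TPM in 2838c3, 558 and 475 TPM in 6499c4, and 366 and 392 TPM in 6419c5. Its relative log2 difference was 1.48 in 2838c3 and between -0.26 and 0.34 in the other lines. The 8 assembly factors and Cox7a2l, which help to build the complexes, had medians of 0.11, -0.14, -0.22 and 0.09. Ndufaf1, which helps to join the membrane arm, stood at 17.6 TPM in KO and 24.2 TPM in WT cells of 6694c2, 27.3 and 34.4 TPM in 2838c3, 21.6 and 27.2 TPM in 6499c4, and 28.7 and 31.7 TPM in 6419c5. KO was under WT in all 4 lines. Relative to all genes its log2 differences were -0.21, -0.24, -0.22 and 0.02, and the adjusted limma p was 0.561.

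Complex II, which oxidises succinate and has no mitochondrial gene, had medians of -0.21, -0.34, 0.01 and -0.03 over its 4 genes. Sdha, its flavoprotein, stood at 186 TPM in KO and 277 TPM in WT cells of 6694c2, 191 and 274 TPM in 2838c3, 190.1 and 205 TPM in 6499c4, and 169 and 198 TPM in 6419c5. All 4 KO values lay below all 4 WT values, at 184 ± 10.3 TPM in KO and 239 ± 42.7 TPM in WT (SD, n = 4 libraries each). Ranges that do not overlap were seen for 1.49% of all genes. Relative to all genes the log2 differences of Sdha were -0.35, -0.44, -0.00 and -0.08. Sdha had the smallest unadjusted p of the members, 0.043, with a limma log2 difference of -0.36 (SE 0.14), or -0.21 relative to all genes. Its adjusted limma p over 12900 genes was 0.561, and with median-ratio scaling its unadjusted p was 0.206. Sdhd, the membrane anchor, stood at 189.6 and 292 TPM in 6694c2, 190.3 and 254 TPM in 2838c3, 289 and 299 TPM in 6499c4, and 215 and 247 TPM in 6419c5, KO before WT, and its ranges overlapped.

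Complex III, which passes electrons from ubiquinol to cytochrome c, had medians of 0.00, -0.32, 0.18 and 0.19 over 8 nuclear subunits. Uqcrq, a small subunit that binds next to cytochrome b, moved most. It stood at 219.8 TPM in KO and 99.9 TPM in WT cells of 6694c2, 91.0 and 169.9 TPM in 2838c3, 176 and 141 TPM in 6499c4, and 201 and 125 TPM in 6419c5. KO was higher in 3 lines and lower in 2838c3, with relative log2 differences of 1.36, -0.81, 0.42 and 0.84.

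Complex IV, the oxygen-reducing cytochrome c oxidase, had medians of -0.20, -0.25, 0.32 and 0.11 over 12 nuclear subunits, and all 12 lay above the median of all genes in 6499c4. Cox5b, which binds zinc, stood at 158 TPM in KO and 188 TPM in WT cells of 6694c2, 122 and 267 TPM in 2838c3, 340.3 and 283 TPM in 6499c4, and 247 and 278 TPM in 6419c5. Ndufa4 was also lowest in the 2838c3 KO library, at 135 TPM against 299 TPM in its WT parent, a relative log2 difference of -1.06. Cox7a2l, in contrast, was highest there, at 716 TPM against 352 TPM in WT, a relative log2 difference of 1.11. Of its windows 15.5% occur elsewhere in the genome.

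The alternative isoforms and paralogues of complex IV subunits were mostly near 0. Cox4i2 did not pass 0.392 TPM and Ndufa4l2 did not pass 0.462 TPM in any library. Their counterparts Cox4i1 and Ndufa4 were at 785 to 1308 TPM and 135 to 309 TPM. Cox6a2, the muscle form, stood at 3.90 TPM in KO and 2.68 TPM in WT cells of 6694c2, 1.84 and 0.119 TPM in 2838c3, 0.162 and 0.233 TPM in 6499c4, and 0.914 and 0.606 TPM in 6419c5. Cox7a1, the heart and muscle form of subunit 7a, was the most variable nuclear member within lines. It stood at 2.98 TPM in KO and 21.8 TPM in WT cells of 6694c2, 21.8 and 8.004 TPM in 2838c3, 51.0 and 24.1 TPM in 6499c4, and 11.8 and 16.0 TPM in 6419c5. The relative log2 differences of Cox7a1 were -2.29, 1.42, 1.15 and -0.25, while its counterpart Cox7a2 stayed between -0.27 and 0.29 at 129 to 264 TPM.

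Complex V, the ATP synthase, had medians of -0.06, -0.63, 0.14 and 0.09 over 17 nuclear subunits. In 2838c3, 9 of the 17 were at least 1.5-fold lower in KO, against 16.0% of all genes, and none was 1.5-fold higher. They included Atp5f1b, the catalytic beta subunit, at 424 TPM in KO and 746 TPM in WT, and Atp5me, a subunit of the membrane part, at 124 TPM in KO and 233 TPM in WT, both named after their values were seen. Atp5f1d, the delta subunit of the central stalk, differed little there, at 186 TPM in KO and 202 TPM in WT. Atp5f1a, the alpha subunit, stood at 898 TPM in KO and 1104 TPM in WT cells of 6694c2, 766 and 1077 TPM in 2838c3, 703 and 829 TPM in 6499c4, and 821 and 959 TPM in 6419c5. KO was under WT in each line, with a limma log2 difference of -0.31 (SE 0.14), or -0.16 relative to all genes, and an adjusted p of 0.561. Atp5if1, which blocks the enzyme from running in reverse, had relative log2 differences of -0.28, -0.41, 0.36 and 0.37.

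Across the 4 lines no member passed the test of KO against WT at an adjusted p under 0.05 in limma. Neither did any of the 12900 genes (0.0%), the targeted C1galt1c1 included. The limma log2 difference of C1galt1c1 was -1.42 (SE 0.15), with an unadjusted p of 3.2e-05 and an adjusted p of 0.278. The absence of calls therefore does not show that the members are unchanged. At an unadjusted p under 0.05, Sdha was the only member, or 1 of 101, against 1137 of all genes (8.81%), of which 1026 were lower (7.95%) and 111 higher (0.86%). With median-ratio scaling 0 of 101 members and 646 of all genes (5.01%) had such a p. The KO and WT ranges did not overlap for Sdha and Ndufa8 among the members, against 1.49% of all genes. Ndufa8, an accessory subunit of complex I, stood at 220 to 239 TPM in KO and 246 to 298 TPM in WT libraries, with an unadjusted limma p of 0.195, and it was named after its values were seen. The median log2 difference relative to all genes was 0.15 for the 13 mitochondrial members and -0.00 for the 88 nuclear ones. For the mitochondrial genes the limma standard errors ran from 0.19 for mt-Nd3 to 0.51 for mt-Nd4l, which is as large as most of their estimates. The fit over all lines thus averaged opposite differences of single lines, and the sign of the mitochondrial median changed when 6694c2 (-0.05) or 2838c3 (-0.08) was left out.

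The lines were compared in the same fit, where the KO and WT libraries of a line are its only repeat. A KO minus WT difference that varies between lines therefore counts as spread in this test. Between lines, the limma F-test passed an adjusted p of 0.05 for 7 of 101 members (6.93%), against 16.9% of all genes. The 7 were Uqcr11 (adjusted p 0.0053), Ndufs7 (0.0152), Atp5f1d (0.0257), mt-Cytb (0.0271), Atp5mc1 (0.03), Ndufa7 (0.0416) and Ndufb10 (0.0442), the last of which was named after its value was seen. mt-Nd2 lay just outside, at 0.0505. The count rests on which lines are in the fit: it was 2 without 6694c2, 31 without 2838c3, 1 without 6499c4 and 1 without 6419c5. Of all 12900 genes, 1465, 3708, 871 and 903 passed in the same order. Without 2838c3 the share of members was thus no longer below that of all genes. Uqcr11, a small subunit of complex III, stood at 128 TPM in KO and 199 TPM in WT cells of 6694c2, 224 and 305 TPM in 2838c3, 672 and 641 TPM in 6499c4, and 492 and 539 TPM in 6419c5. The line means spanned a 4.01-fold range, and the libraries of each line did not overlap with those of another. Ndufs7, the core subunit that carries the last iron-sulfur cluster of complex I, had line means of 83.5, 123, 198 and 165 TPM in the same order of lines. Atp5mc1, 1 of 3 genes for the identical c subunit of the ATP synthase ring, had line means of 38.7, 33.0, 79.0 and 103 TPM, while Atp5mc2 and Atp5mc3 did not pass the test. Of the windows of Atp5mc1, 52.9% occur elsewhere in the genome.

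**Figure D5:**
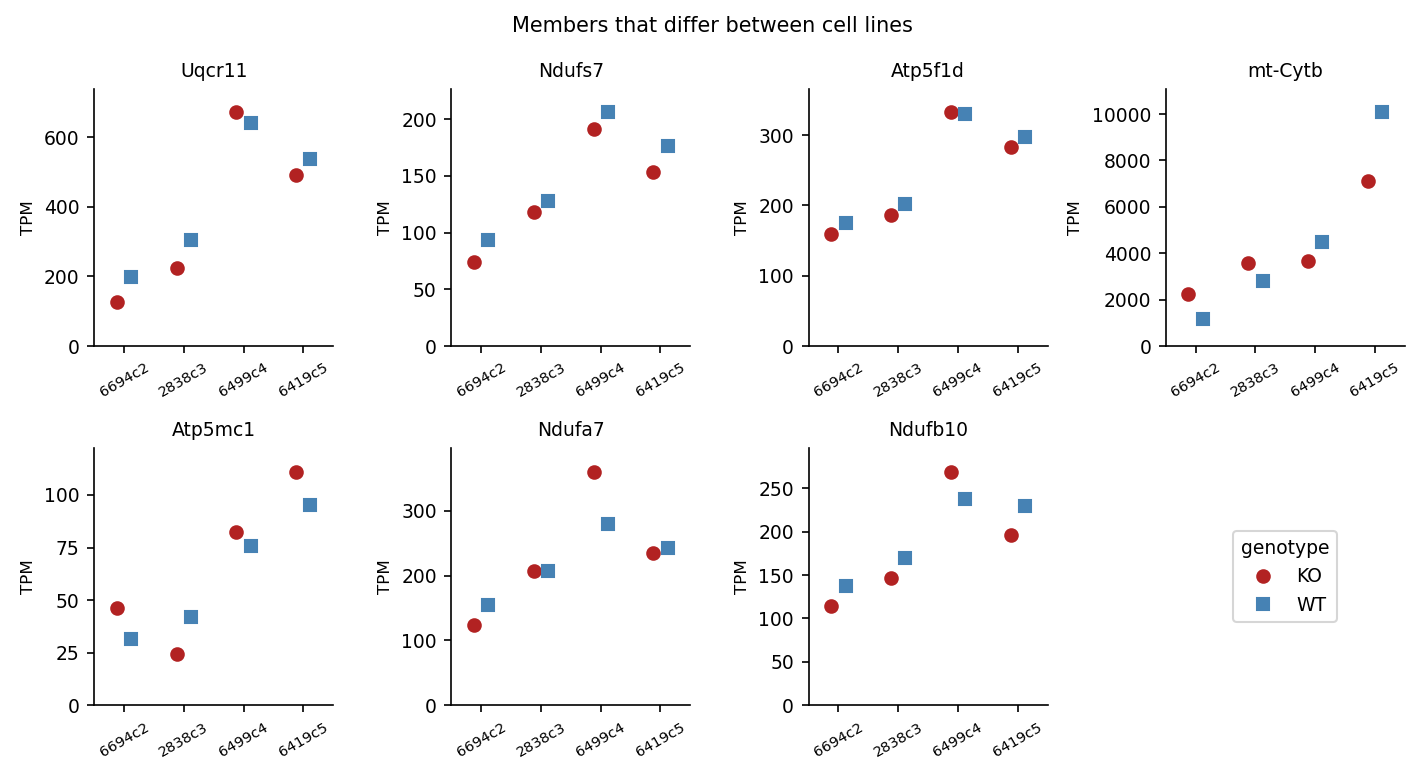
TPM in each library (KO as red circles at the left, WT as blue squares at the right within each line) for the 7 members with a limma F-test adjusted p under 0.05 between lines. For 5 of them, all but mt-Cytb and Atp5mc1, line 6499c4 is highest and 6694c2 lowest.

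3 of these genes are neighbours: Atp5f1d (79974466 to 79981652, plus strand), Ndufs7 (80084941 to 80095049, plus strand) and Uqcr11 (80236542 to 80242676, minus strand) lie on chromosome 10 in GRCm39. All had the highest mean in 6499c4 and the lowest in 6694c2. Of the other 14 genes tested in the stretch from Atp5f1d to Uqcr11, 6 differed between lines by the same test and 6 had that order of highest and lowest line, against 26.2% and 18.2% of the 595 genes tested on chromosome 10 and 16.9% and 10.2% of all genes. The stretch was chosen after these values were seen, and no test was made of it.

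The promoters of the line-dependent Uqcr11 and Ndufs7 and of Ndufa6 are shown to let the motif matches be seen. The windows run from 250 bases before to 50 bases after the start in RefSeq, build GRCm38.p6, at chr10:80406772-80407071 (minus strand), chr10:80249199-80249498 (plus strand) and chr15:82354242-82354541 (minus strand). Capitals mark an ETS match (CCGGAAG) and then an NRF1 core on both strands (GCATGCG and its reverse complement, overlapping by 6 bases) in Uqcr11, a YY1 core (ATGGCGG) in Ndufs7 and an NRF1 core in Ndufa6.
Uqcr11 promoter: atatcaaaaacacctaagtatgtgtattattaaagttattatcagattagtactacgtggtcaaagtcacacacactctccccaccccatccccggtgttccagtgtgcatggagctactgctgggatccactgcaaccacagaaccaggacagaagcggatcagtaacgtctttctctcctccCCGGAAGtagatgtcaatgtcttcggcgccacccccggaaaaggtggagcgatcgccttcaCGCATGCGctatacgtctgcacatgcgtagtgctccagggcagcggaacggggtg
Ndufs7 promoter: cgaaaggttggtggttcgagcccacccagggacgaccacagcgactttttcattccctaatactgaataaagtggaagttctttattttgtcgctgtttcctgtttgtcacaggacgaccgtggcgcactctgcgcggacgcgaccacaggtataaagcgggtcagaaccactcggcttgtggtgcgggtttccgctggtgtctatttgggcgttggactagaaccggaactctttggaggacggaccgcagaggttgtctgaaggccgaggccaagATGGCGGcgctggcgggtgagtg
Ndufa6 promoter: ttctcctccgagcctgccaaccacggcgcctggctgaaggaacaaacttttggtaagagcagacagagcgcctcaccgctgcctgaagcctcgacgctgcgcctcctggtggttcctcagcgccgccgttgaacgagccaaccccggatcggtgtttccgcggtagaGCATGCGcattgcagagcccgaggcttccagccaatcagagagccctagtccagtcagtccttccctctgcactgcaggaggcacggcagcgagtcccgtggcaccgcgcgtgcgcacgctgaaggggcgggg
Of the 88 nuclear members, 72 matched a RefSeq promoter window. Each motif was searched on both strands. The letters of these motifs were chosen after matches of longer NRF1 and YY1 forms in the same windows had been seen. The NRF1 core was found for 13 of the 72 (18.1%), against 4.96% of 17492 protein-coding genes. The members passed a TPM minimum and those genes did not have to, so the sets are unlike in that respect. The ETS motif was found for 18 (25%), against 12.9%, and the YY1 core for 12 (16.7%), against 6.05%. A match describes letters in these windows and not binding in these cells. The YY1 core begins with ATG, and the windows reach 50 bases past the start, where the Ndufs7 match lies. Such a match can also be the first codon of a protein, which was not tested.

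The mitochondrial genes were highest in 6419c5 throughout: all 13 had their highest line mean there, and for 10 of them both 6419c5 libraries lay above all 6 others, against 13.5% of all genes. In 6694c2, 10 of 13 had their lowest line mean, and for 4 of them (mt-Nd1, mt-Nd2, mt-Nd5 and mt-Cytb) both libraries lay below all others, against 12.5% of all genes. The nuclear members shared the low end with them, since 53 of 88 had their lowest line mean in 6694c2, against 34.8% of all genes, and for 21 both 6694c2 libraries lay below all others. All 7 nuclear core subunits of complex I and 10 of 12 nuclear subunits of complex IV were lowest in 6694c2. At the high end the nuclear members split, with 32 of 88 (36.4%) highest in 6419c5, near the 32.1% of all genes, and 29 (33.0%) in 6499c4, against 20.9% of all genes. Uqcrc2, an accessory subunit of complex III chosen after its values were seen, had the opposite order of these lines. It stood at 178 TPM in KO and 176 TPM in WT cells of 6694c2, above all other lines, and at 101 TPM in KO and 126 TPM in WT cells of 6499c4, below them. The unnamed RNA of the 6694c2 KO library was high, as given above, but the WT library of that line held 1.22%, and its part in the low levels of the line was not tested.

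Across the 8 libraries the mean log2 level of the nuclear members was followed most closely, among genes outside the list, by Snrnp35, Yipf1, Nudt1, Ywhag and Abhd16a, each with Pearson's r of 0.98. Over single members, the median r with that mean was 0.71 for the 88 nuclear members, which are part of it, and 0.32 for the 13 mitochondrial members, with a range of -0.38 to 0.55. These correlations are over 8 libraries that share 4 lines, and they describe the table only.

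Other genes of mitochondrial function gave the surroundings of these values. The 26 genes of mitochondrial DNA and RNA maintenance had median relative log2 differences of 0.29, -0.12, -0.18 and -0.00 in the 4 lines. At an unadjusted limma p under 0.05 in either direction were 0 of 26, against 8.81% of all genes. Tfam, which packs mitochondrial DNA and starts its transcription, stood at 16.8 TPM in KO and 16.7 TPM in WT cells of 6694c2, 16.6 and 22.3 TPM in 2838c3, 16.7 and 29.0 TPM in 6499c4, and 23.3 and 30.6 TPM in 6419c5. Polrmt, the mitochondrial RNA polymerase, had relative log2 differences of 0.21, -0.13, 0.07 and 0.02. The regulator Ppargc1a did not pass the TPM minimum and was not tested. It stood at 0.134 to 0.637 TPM in KO and 0.233 to 1.72 TPM in WT cells of the first 3 lines. In 6419c5 it stood at 4.97 TPM in KO and 9.97 TPM in WT cells. Of the 8 biogenesis regulators that were tested, 0 differed between lines by the limma F-test, against 16.9% of all genes. Among them, Ppargc1b was higher in 6694c2 than in 6419c5 in KO libraries and lower in WT libraries. A link of Ppargc1a to the mitochondrial levels was not tested.

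The 78 tested genes of the mitochondrial ribosome had medians of 0.21, -0.37, 0.06 and 0.15, and 21 of them were at least 1.5-fold lower in 2838c3, against 16.0% of all genes, with 1 higher, against 15.1%. Of the 42 tested assembly factors outside the symbol rule, 4 were lower and 0 higher at an unadjusted limma p under 0.05, against 7.95% and 0.86% of all genes, so the count was near the background. Cox20, which guides mt-Co2 into complex IV, was among them. Cox20 stood at 12.7 TPM in KO and 19.7 TPM in WT cells of 6694c2, 9.75 and 27.6 TPM in 2838c3, 10.4 and 13.5 TPM in 6499c4, and 18.0 and 21.9 TPM in 6419c5, with an unadjusted limma p of 0.022 and an adjusted p of 0.556. Of the 9 electron carriers and quinone-linked dehydrogenases, 4 differed between lines, against 16.9% of all genes (Etfb, Prodh, Sqor and Gpd2, named after their values were seen). Cycs, which encodes cytochrome c, had relative log2 differences of 1.14, -1.04, -0.09 and 0.89.

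Lonp1, the protease of the mitochondrial matrix, was higher in KO in each line: 608 TPM in KO and 398 TPM in WT cells of 6694c2, 534 and 334 TPM in 2838c3, 544 and 369 TPM in 6499c4, and 363 and 297 TPM in 6419c5. Its limma log2 difference was 0.53 (SE 0.14), or 0.68 relative to all genes, with an unadjusted p of 0.007 and an adjusted p of 0.556. It was the only 1 of 11 mitochondrial chaperones and proteases with an unadjusted p under 0.05. The coenzyme Q, tricarboxylic acid cycle and cristae lists had 0 of 13, 1 of 13 (Sucla2, lower) and 0 of 10 such genes. Of all genes, 8.81% had such a limma p in either direction, and 0.86% had it with KO higher.

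Glycolytic and hypoxia-linked genes, which supply ATP without the respiratory chain, moved by line as well. Their 16 tested members had median relative log2 differences of -0.90 in 6694c2, 1.23 in 2838c3, 0.51 in 6499c4 and -0.46 in 6419c5. At least 1.5-fold lower were 11 of 16 in 6694c2, against 10.4% of all genes, and 5 in 6419c5, against 6.47%. At least 1.5-fold higher were 14 of 16 in 2838c3, against 15.1% of all genes, and 4 in 6499c4, against 4.46%. In 2838c3, where these genes were highest in KO, 72 of 88 nuclear respiratory genes were below the median of all genes, whereas in 6499c4 the glycolytic genes and 66 of 88 nuclear respiratory genes were both above it. No glycolytic gene had an unadjusted limma p under 0.05 over the 4 lines, against 8.81% of all genes.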

How the data were processed

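Polyadenylated RNA of 8 cultures was sequenced, per the labels' protocols. The authors deposited TPM, which sum to 1000000 per library and keep no depth, so no counting interval is given. The submitters' processing notes list DESeq2 2.11.40.8, featureCounts 2.1.1, STAR 2.7.11b, cutadapt 5.1 and the build mm39. Annotation, gene lengths, strand setting and the handling of reads with several matches are not given in the sources used here. The design text calls the libraries stranded, which the protocol does not state.

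Names and positions came from GENCODE vM39 (GRCm39), which matched 45505 identifiers and left 3810 unnamed. The 12900 genes at or above a TPM of 1 in 4 or more libraries entered limma 3.58.1 in R 4.3.3 on log2(TPM + 1), with genotype, cell line as a block and a mean-variance trend, tested on simulated data. P-values were adjusted by Benjamini-Hochberg over all 12900. Same-line libraries deviated together, with r of 0.66 in 6694c2, 0.42 in 2838c3, 0.79 in 6499c4 and 0.75 in 6419c5, and come from the same line. Over the 101 members alone r was 0.41, -0.30, 0.41 and 0.81 in that order, so in 2838c3 the correlation was negative but weak. Within-line differences have no test. Exact copies of 150-base windows of canonical transcripts were sought in GRCm39. Python 3.11.15 was used for tables.

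The members, lists and alternatives were chosen with earlier results of these data known. Named genes are the 13 mitochondrial genes, the nuclear members of highest level and smallest p in each complex, those with the largest difference in a line, isoforms, 2 genes per list, a set of regulators and the 5 genes most like the nuclear mean. The alternatives were other pseudocounts, filters, scalings and variance models, no line block, and lines left out.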

Additional observations from a re-analysis of the deposited data

Results flagged for a closer look

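Within groups of 4 libraries, the lowest or highest library was compared with the range of its group for the 45 named members in each genotype (90 groups) and for the summed levels of the complexes. Chance marks about 1 in 20 such groups. All 4 values that stood apart were the WT library of 6694c2, each at the low end of the WT libraries. They were mt-Co3 at 2.61 TPM, Cox5b at 188 TPM, the summed TPM of the 7 nuclear core subunits of complex I at 912 TPM and that of all 36 nuclear subunits of complex I at 5155 TPM. The KO library of the same line stood at 3.84, 158, 839 and 4276 TPM for the same 4 quantities. Among the 90 gene groups only mt-Co3 and Cox5b in WT were marked, fewer than the 1 in 20 given for chance. The 7 core subunits are part of the 36, so their sums are not separate.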

How the results depend on the processing

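No gene passed an adjusted p of 0.05 for KO against WT in limma under any alternative run. The 1 member (Sdha) and 1137 genes at an unadjusted p under 0.05 became 0 and 646 with median-ratio scaling, 0 and 655 with quantile normalization, 0 and 750 on the nuclear protein-coding base, and 0 and 210 with no replicate block. The line pairing follows from the shared cell line, not from these counts. No variance trend gave 0 members and 1135 genes, and no filter on low values gave 6 and 1624. The fit without lines 6694c2 and 6419c5 gave 2 and 1018. Leaving out each line in turn gave 0 to 2 members and 720 to 1641 genes.

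The 7 members and 2178 genes that differed between lines became 3 and 1754 with no filter on low values. Without lines 6694c2 and 6419c5 they became 2 and 944. Leaving out each line in turn gave 1 to 31 members and 871 to 3708 genes, with 903 genes without 6419c5. Uqcr11 passed under all 13 alternatives, Ndufs7, Atp5f1d and Atp5mc1 under 9, mt-Cytb under 8 and Ndufa7 under 7. The cause was not tested.

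The median KO minus WT difference of the mitochondrial members, 0.15 over all lines, ranged from -0.08 to 0.41 when a line was left out, and that of the nuclear members from -0.06 to 0.08. Of 630 uncalled single-gene values under alternatives, 61 took the other sign, in 25 of 45 genes. TPM hold no depth, so the precision of low values such as those of mt-Atp8 or Cox6a2 is not known. The annotation and gene lengths behind the TPM are not known either, and the reading of the 6 mitochondrial genes copied on chromosome 1 depends on how shared reads were counted.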
